A study of Homo sapiens with 3 samples.

Results

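The genes described here were the SPARC family and other matricellular genes, namely SPARC, SPARCL1, SPOCK1, SPOCK2, SMOC1, SMOC2, FSTL1, THBS1, TNC and SPP1. These 10 genes were taken by symbol from 3 lists of mRNA levels, which together held 16149 genes, and a gene missing from a list was taken as 0. Of the 10, 7 were listed in at least 1 library, and SPOCK1, SMOC1 and SMOC2 were listed in none. The 3 libraries came from human hepatocellular carcinoma (HCC) cells in culture, with 1 library for each cell line. The parent is given in the labels as HCCLM3 with low metastatic ability, and in the methods of the study as HCCLM3-R, a derivative of HCCLM3 that expresses red fluorescent protein and has a high metastatic potential. Subclone 1 is labelled as having a higher metastatic ability to the lung, and subclone 2 as metastasizing to lung and celiac lymph node. All 3 were grown in DMEM. The study obtained its monoclonal lines by limiting dilution of cells from metastases of orthotopic xenografts in nude mice, but which of these clones are subclone 1 and subclone 2 is not given in the sources used here.

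Matricellular proteins are secreted into the extracellular matrix, where they regulate adhesion, migration and growth factor signals rather than serving as structural scaffold. Many are abundant in development, wound healing and tumor stroma and sparse in most resting adult tissue. SPARC, also called osteonectin, binds collagen and lowers cell adhesion to matrix, and it shares a follistatin-like module and an extracellular calcium-binding module with SPARCL1, the testicans SPOCK1 and SPOCK2, SMOC1, SMOC2 and FSTL1. THBS1 (thrombospondin 1), TNC (tenascin C) and SPP1 (osteopontin) belong to other families and act on cells through integrins and receptors such as CD36, CD47 and CD44.

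Levels were given as RPKM, the reads of a gene divided by its length and by the total reads of the library, so that levels of different genes can be set side by side. Whole reads were recovered from the RPKM, with totals of 4488825 (parent), 4609696 (subclone 1) and 4725150 (subclone 2). The 95% intervals below are exact intervals on these reads. They cover counting error only, since each cell line was sequenced once, and differences between cell lines could not be tested. Fewer cells that express a gene and less mRNA per cell cannot be told apart in such bulk samples. Of 8 hepatocyte genes all were listed and 5 passed the filter described below, with 25, 517 and 736 reads of ALB (parent, subclone 1, subclone 2), 108, 588 and 117 of TF, 27, 242 and 96 of FGB, 19, 80 and 278 of APOB, and 22, 39 and 41 of AFP. The other 3, TTR, APOA1 and SERPINA1, had at most 4 reads in any library. Of 10 fibroblast genes, 6 were listed, and PDGFRA, PDGFRB, ACTA2 and FAP were not.

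Sequences are shown for the 4 genes with more than 3 reads in a library, because every difference between libraries described for the 10 genes is theirs. In GRCh38, SPARC spans chr5:151661096-151687165 (minus strand), SPP1 chr4:87975650-87983426 (plus strand), THBS1 chr15:39581079-39599466 (plus strand) and TNC chr9:115019578-115118257 (minus strand). These places are from GENCODE and differ in build from the RPKM, for which the processing notes of the submitters name hg19. The 250 bases before the RefSeq start of each gene (GRCh38.p14) are given 5′ to 3′ on the strand of the gene. RefSeq and GENCODE differ in these starts. By the GENCODE places, the SPARC window lies inside the gene, and those of SPP1 and TNC lie partly inside. Capitals mark matches on either strand to any of 5 short motifs. The motif GGAGGA is a purine-rich repeat. The motif GGGCGG is known as the binding element of Sp1 factors. The motif CCAAT is bound by nuclear factor Y. The motif TATANA stands for the core element near many start sites. The motif TGACTCA is bound by Fos and Jun dimers.
SPARC, chr5:151686916-151687165, minus strand: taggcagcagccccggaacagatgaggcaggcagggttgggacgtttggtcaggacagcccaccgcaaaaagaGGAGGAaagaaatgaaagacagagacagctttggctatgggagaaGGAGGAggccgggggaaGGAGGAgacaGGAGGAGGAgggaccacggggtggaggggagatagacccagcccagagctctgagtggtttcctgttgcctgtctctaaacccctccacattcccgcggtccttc
SPP1, chr4:87975464-87975713, plus strand: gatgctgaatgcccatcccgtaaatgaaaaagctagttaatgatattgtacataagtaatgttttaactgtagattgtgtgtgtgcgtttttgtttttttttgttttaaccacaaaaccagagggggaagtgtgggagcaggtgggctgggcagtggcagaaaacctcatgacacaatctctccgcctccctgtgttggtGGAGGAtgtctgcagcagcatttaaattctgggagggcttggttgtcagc
THBS1, chr15:39580829-39581078, plus strand: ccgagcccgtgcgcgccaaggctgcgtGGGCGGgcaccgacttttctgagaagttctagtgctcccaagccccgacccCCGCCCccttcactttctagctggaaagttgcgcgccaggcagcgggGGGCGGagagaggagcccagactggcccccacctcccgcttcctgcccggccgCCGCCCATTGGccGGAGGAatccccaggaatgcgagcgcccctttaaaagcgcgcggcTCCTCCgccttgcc
TNC, chr9:115118158-115118407, minus strand: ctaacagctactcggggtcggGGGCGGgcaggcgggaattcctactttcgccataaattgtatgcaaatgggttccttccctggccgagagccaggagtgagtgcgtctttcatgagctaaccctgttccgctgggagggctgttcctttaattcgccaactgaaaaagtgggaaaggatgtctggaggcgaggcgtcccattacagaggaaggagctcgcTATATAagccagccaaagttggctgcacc

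The SPARC window held 5 matches to GGAGGA, all on the strand of the gene, with 1 pair of them overlapping by 3 bases. At least as many matches were found in 0.669% of the 35116 RefSeq promoter windows of the same length, and 31.8% held at least 1. It held no match to the other 4 motifs. The SPP1 window had a single GGAGGA. THBS1 had 4 matches to GGGCGG, 1 to CCAAT and 2 to GGAGGA, and TNC had 1 match to GGGCGG and a TATATA that reads the same on either strand. GGGCGG was found in 42.6% of all windows, CCAAT in 32.0%, TATANA in 17.7% and TGACTCA in 4.20%, and the last in none of the windows of the 9 members with an entry. The 4 windows were 59.2% (SPARC), 44.8% (SPP1), 69.6% (THBS1) and 54.8% (TNC) G or C, against a median of 58.0% over all windows. Such matches describe the letters in these windows only.

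SPARC mRNA is also the target of a real-time PCR assay of the study, so its primers are shown with the product they define.
SPARC forward primer: AGGAAACCGAAGAGGAGG
SPARC reverse primer: TTGTGGCAAAGAAGTGGC
SPARC product, chr5:151669730-151673158 of GRCh38, minus strand, exons 4 to 6, primer sites in capitals: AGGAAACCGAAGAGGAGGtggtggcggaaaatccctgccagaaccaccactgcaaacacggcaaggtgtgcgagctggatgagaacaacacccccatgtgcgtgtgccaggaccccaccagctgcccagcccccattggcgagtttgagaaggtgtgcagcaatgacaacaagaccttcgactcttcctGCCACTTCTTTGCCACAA
The product has 207 bases in the transcript, and the exons between its ends are separated by introns in the genome. Against the GENCODE transcripts of the other 9 genes, the forward primer had at least 3 mismatches over its 18 bases (in SPOCK2) and the reverse primer at least 5, so that no other gene of the group matches this pair without mismatch.

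**Figure D1:**
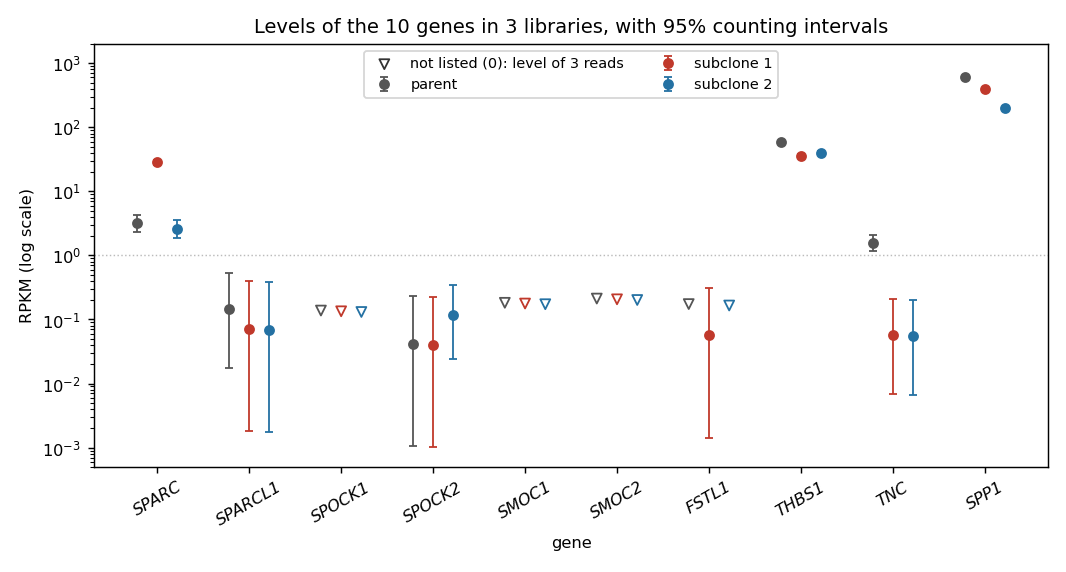
Level of each of the 10 genes in the parent, subclone 1 and subclone 2 (RPKM, log scale), 1 point per library. Bars are 95% counting intervals, open triangles mark genes not listed in a library at the level that 3 reads would have, and the dotted line is 1 RPKM. SPP1 and THBS1 stand highest in the parent, SPARC stands highest in subclone 1, TNC is above 1 RPKM in the parent only, and the other 6 genes have at most 3 reads in any library.

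The 10 genes covered a wide range of levels. In the parent, SPP1 was the most abundant at 603 RPKM, followed by THBS1 at 59.2, SPARC at 3.22 and TNC at 1.58 RPKM, and no interval of these 4 overlapped that of its neighbour. The order SPP1, THBS1, SPARC was kept in subclone 1 and subclone 2. The 10 genes summed to 667 RPKM (parent), 455 RPKM (subclone 1) and 242 RPKM (subclone 2), of which SPP1 alone made up 90.4%, 85.8% and 82.3%. Below SPARC, the levels of TNC, SPARCL1 and SPOCK2 in the subclones lay between 0.0406 and 0.119 RPKM, from 1 to 3 reads each, with intervals that overlapped throughout.

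Only 3 of the 10 genes, SPARC, THBS1 and SPP1, had a mean of at least 1 RPKM over the libraries, the filter passed by 11370 of the 16149 genes. Ratios between libraries are log2 of RPKM plus 0.1 in each library unless a fold is given, which is the plain ratio of RPKM. Of the 3 genes, 1 (SPARC) exceeded the parent by 2-fold or more in subclone 1, a difference seen in 4.9% of the 11370 genes, and 0 fell short of it by 2-fold or more, against 1.82%. By the same limits, subclone 2 over the parent gave 0 higher genes, against 5.33% of all genes, and 1 lower gene (SPP1), against 2.16%. Subclone 2 over subclone 1 gave 0 higher genes (1.42% of all genes) and 1 lower gene, SPARC (1.39%). In the order of these comparisons, the median log2 ratio of the 3 genes was -0.63, -0.56 and -0.97, against 0.0043, 0.037 and 0.034 over all genes. These counts rest on 3 genes and say nothing of the 7 that did not pass.

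SPARC was the only one of the 10 genes that stood higher in a subclone than in the parent beyond counting error. The parent had 3.22 RPKM (46 reads), subclone 1 had 28.5 RPKM (417 reads) and subclone 2 had 2.60 RPKM (39 reads). Subclone 1 was thus high and the other libraries were low, with overlapping intervals of 2.36 to 4.30 RPKM in the parent and 1.85 to 3.55 RPKM in subclone 2. Among the genes listed in each library, SPARC moved from percentile 37.3 in the parent to 82.1 in subclone 1 and stood at 34.0 in subclone 2. The fold of subclone 1 over the parent was 8.83 (95% interval 6.50 to 12.2), and that of subclone 1 over subclone 2 was 11.0 (7.88 to 15.6). Subclone 2 over the parent gave 0.805, with an interval of 0.512 to 1.26 that leaves room for a difference in either direction. Set against THBS1, the level of THBS1 was 18.4 times that of SPARC in the parent and 15.4 times in subclone 2, but 1.27 times in subclone 1.

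Markers of other cell types were measured beside SPARC, which fibroblasts also transcribe. For the parent, subclone 1 and subclone 2, the 10 fibroblast genes summed to 15.7, 31.2 and 24.3 RPKM, and most of it was LUM, with 10.1, 24.0 and 21.0 RPKM. Of the defining fibroblast collagens, COL1A1 had 9, 11 and 1 reads, COL1A2 had 1, 1 and 0 reads, and COL3A1 had 109, 56 and 12 reads. DCN, the matrix proteoglycan decorin, had 8, 47 and 30 reads and was highest in subclone 1, as was SPARC, with a fold over the parent of 5.72 (2.68 to 14.0). THY1 had 0, 1 and 1 reads. The 5 endothelial genes summed to 5.11, 11.9 and 7.60 RPKM. PECAM1 made up most of this sum, with 102, 309 and 144 reads and a fold of 2.95 in subclone 1 over the parent (2.35 to 3.73), and KDR had 37, 54 and 88 reads, while CDH5 had 0, 1 and 0, VWF 2, 1 and 1, and TEK 8, 2 and 1. The 5 leukocyte genes summed to 75.5, 113 and 99.6 RPKM, nearly all of it CD68 with 633, 969 and 881 reads, while PTPRC had 1, 0 and 0 reads, CD14 had 1, 8 and 0, and CD3E and MS4A1 were not listed. The part of these genes' cell types in the level of SPARC was not tested.

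SPP1 encodes a secreted phosphoprotein that binds integrins and CD44. It was the most abundant of the 10 genes in all 3 libraries and was lower in each subclone than in the parent. The parent had 603 RPKM (585 to 621, 4440 reads), subclone 1 had 390.1 RPKM (376 to 404, 2951 reads) and subclone 2 had 199 RPKM (189 to 209, 1543 reads). The 3 intervals did not overlap, and SPP1 ranked 87th, 143rd and 293rd among the 14703, 14900 and 14931 genes listed. Relative to the parent it was 0.647-fold in subclone 1 (0.618 to 0.678), a log2 ratio of -0.63, and 0.330-fold in subclone 2 (0.311 to 0.350), a log2 ratio of -1.60. Subclone 2 was 0.510-fold of subclone 1 (0.479 to 0.543). This log2 ratio of -0.97 lay just inside the 2-fold line and passed it when ratios were centred on the median of all genes.

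THBS1 encodes a secreted glycoprotein that inhibits angiogenesis and can activate latent TGF-beta. The parent had 59.2 RPKM (56.3 to 62.2, 1547 reads), against 36.0 RPKM for subclone 1 (33.8 to 38.4, 967 reads) and 40.0 RPKM for subclone 2 (37.7 to 42.5, 1101 reads). The parent was the highest, and the intervals of the subclones overlapped in part. The fold over the parent was 0.609 in subclone 1 (0.561 to 0.660) and 0.676 in subclone 2 (0.625 to 0.731), and subclone 2 was 1.11-fold of subclone 1 (1.02 to 1.21). No difference of THBS1 reached 2-fold. The level of SPP1 divided by that of THBS1 was 10.2 (parent), 10.8 (subclone 1) and 4.97 (subclone 2).

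TNC encodes a large hexameric glycoprotein of tumor stroma and of healing tissue. It was seen almost only in the parent, with 1.58 RPKM (1.19 to 2.06, 54 reads). Subclone 1 had 0.0570 RPKM (0.00690 to 0.206) and subclone 2 had 0.0556 RPKM (0.00673 to 0.201), each from 2 reads. The parent interval lay above those of the subclones, which were alike in reads. The fold over the parent was 0.0361 in subclone 1 (0.00426 to 0.137) and 0.0352 in subclone 2 (0.00416 to 0.133). The read numbers take a gene length of 7616 bases, near the 7641 bases of the principal GENCODE transcript with 28 exons. The RPKM alone would also allow 3808 bases with 27, 1 and 1 reads, under which the intervals of the fold end at 0.219 and 0.213. The mean of TNC over the libraries was 0.564 RPKM, so it stood outside the filter and in none of the counts above. With a pseudocount of 1 in place of 0.1, its log2 ratios over the parent, -3.42 (subclone 1) and -3.43 (subclone 2), were each -1.29.

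**Figure D2:**
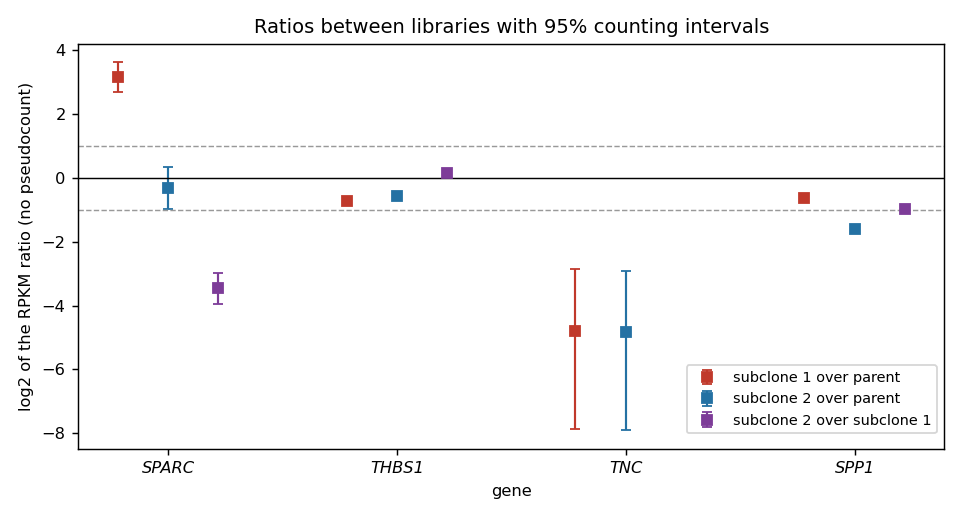
Log2 of the plain RPKM ratio for SPARC, THBS1, TNC and SPP1 in the 3 comparisons, with 95% counting intervals as bars and dashed lines at 2-fold. SPARC is above the upper line in subclone 1 over the parent only, SPARC is below the lower line in subclone 2 over subclone 1, TNC is below it in each subclone over the parent, SPP1 is below it in subclone 2 over the parent, and THBS1 stays between the lines. TNC has no value for the subclones against each other, since each had 2 reads.

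The other members of the SPARC family had at most 3 reads in any library, the fixed limit up to which no fold was taken. SPARCL1, a relative of SPARC with anti-adhesive activity (also called hevin), had 2 reads in the parent and 1 in each subclone, or 0.146, 0.0709 and 0.0692 RPKM. SPOCK2, a testican proteoglycan, had 1, 1 and 3 reads, or 0.0417, 0.0406 and 0.119 RPKM. FSTL1, a secreted follistatin-like glycoprotein, had 1 read in subclone 1 (0.0565 RPKM) and was not listed in the parent or subclone 2. No fold is given for these genes. For SPOCK1, another testican, SMOC1 and SMOC2, modular calcium-binding proteins of basement membranes, the level of 3 reads in the parent was 0.138, 0.182 and 0.212 RPKM at the length of the longest GENCODE transcript, and the exact 95% intervals for their count of 0 ended at 0.170, 0.224 and 0.261 RPKM. SPARC was therefore the only member of its family with more than 3 reads in any library.

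Genes near SPARC and SPP1 in pattern were looked for among the 11370 genes, by the distance between pairs of log2 ratios of the subclones over the parent. This describes likeness over 3 libraries only. The nearest to SPARC were APOE (distance 0.641), GPNMB (0.767) and TF (0.794). APOE, a lipid carrier, had 0.546, 4.61 and 0.692 RPKM in the parent, subclone 1 and subclone 2, from 3, 26 and 4 reads, and passed the filter only through subclone 1. GPNMB, a transmembrane glycoprotein, had 2.81, 19.5 and 1.37 RPKM, and TF, the iron carrier transferrin, had 5.71, 30.3 and 5.88 RPKM. These genes were high in subclone 1 only, as was SPARC, but they were picked by these same ratios. Their likeness to SPARC therefore follows from the choice and is no separate result. Such distances also depend on how densely genes lie around a member, which was not allowed for. No gene lay as near to SPARC as the closest neighbours lay to SPP1. Those were AGA (distance 0.0588), a lysosomal amidase, with 12.4, 7.70 and 4.01 RPKM, KCNE4 (0.0799), a potassium channel subunit, with 12.9, 8.75 and 4.27 RPKM, and SCRN1 (0.0951) with 5.23, 3.16 and 1.72 RPKM.

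**Figure D3:**
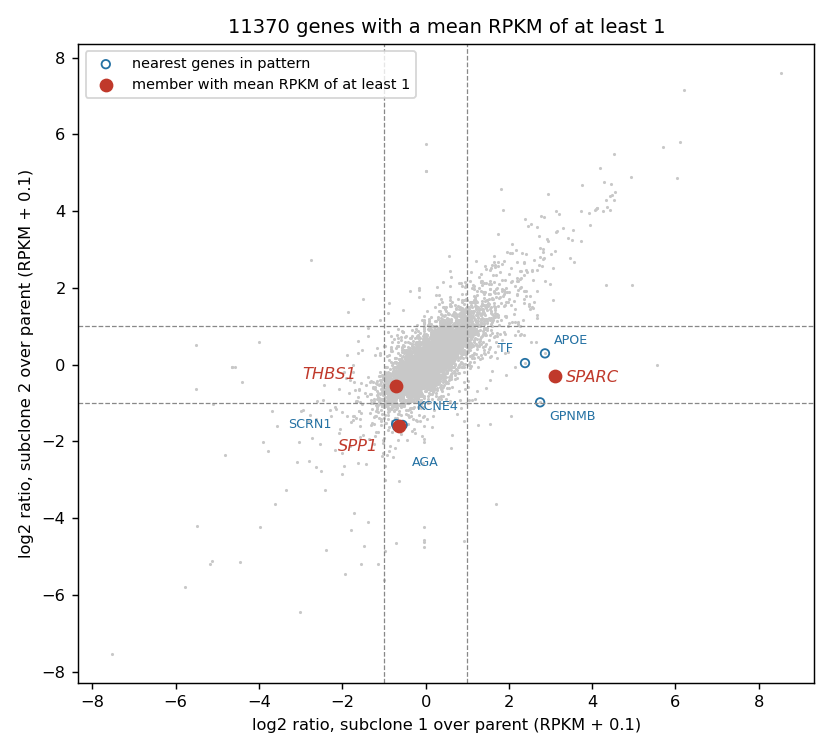
Log2 ratio over the parent in subclone 1 (horizontal) and subclone 2 (vertical) for the 11370 genes that passed the filter, on RPKM plus 0.1, with dashed lines at 2-fold. Filled points are SPARC, THBS1 and SPP1 and open circles the genes nearest to SPARC and SPP1. SPARC lies to the right, at 3.10 and -0.30, away from the diagonal along which most genes lie, while THBS1 and SPP1 are below 0 on each axis. The axes share the parent library.

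Related genes were taken from lists of other family members and of receptors. Of 43 such genes, 33 were listed and 21 had a mean of at least 1 RPKM. These numbers and the medians below include the plexin gene PLXNA1, taken by synonym in place of the CCN gene NOV. PLXNA1 reached 2-fold in no comparison. By the 2-fold limit, 5 of these 21 were higher and 1 was lower in subclone 1 relative to the parent, against 4.9% and 1.82% of all genes. The numbers were 2 higher and 2 lower for subclone 2 against the parent (5.33% and 2.16% of all genes), and 0 higher and 3 lower for subclone 2 against subclone 1 (1.42% and 1.39%). The medians of the log2 ratios were 0.36, 0.31 and -0.05, against 0.0043, 0.037 and 0.034 over all genes. The count of 5 was 2 at a pseudocount of 1 and 3 at a mean of at least 5 RPKM. At that mean the lower counts of 1, 2 and 3 were 0, 0 and 1. Shares over all genes were not taken at these other settings. ITGB3 was below 1 RPKM in the parent and subclone 2 and passed the filter only through subclone 1, where it was high, so its place in these counts supports nothing.

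Values of related genes are given in the order parent, subclone 1, subclone 2. Among the ligands, THBS3, a pentameric thrombospondin, had 11.2, 23.8 and 10.6 RPKM (160, 348 and 159 reads). Its fold in subclone 1 over the parent was 2.12 (1.75 to 2.57), while THBS1 was lower there. THBS2 had 5, 8 and 2 reads, THBS4 had 0, 1 and 0 reads, and COMP was listed in no library. WISP1, a CCN family member and Wnt target, had 4.89, 2.30 and 0.856 RPKM (114, 55 and 21 reads). Its folds over the parent were 0.470 (0.334 to 0.654) and 0.175 (0.104 to 0.280), so WISP1 was highest in the parent and lowest in subclone 2, the order also seen for SPP1. CYR61 and CTGF, other CCN genes that passed the filter, had log2 ratios over the parent between 0.36 and 0.41. The symbol NOV was matched by synonym to gene number 5361, the plexin gene PLXNA1, so no level of the CCN gene NOV is given. FSTL3, which binds activin, had a fold of 2.25 in subclone 2 over the parent (1.87 to 2.72), with 164, 223 and 389 reads. TGFBI, an integrin-binding fasciclin-domain protein, had 135.8, 268.5 and 209.5 RPKM and was 1.98-fold higher in subclone 1 (1.87 to 2.10), while POSTN, its relative, was listed in no library. Of the 4 relatives of SPP1, only DMP1 was listed, with 1 read in subclone 1.

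Receptors were mostly present in all 3 libraries, with 13 of 19 above the filter. ITGB1, the beta chain of most matrix-binding integrins, was the most abundant at 288, 356 and 322 RPKM, followed by CD44, a receptor of SPP1, at 142, 165 and 136 RPKM. ITGAV, which pairs with several beta chains to bind SPP1, THBS1 and TNC, had 58.6, 64.5 and 52.7 RPKM, and CD47, a receptor of THBS1, had 24.0, 24.0 and 29.8 RPKM. ITGB3, a partner of ITGAV, had 0.819, 2.57 and 0.216 RPKM (18, 58 and 5 reads). Its fold over the parent was 3.14 in subclone 1 (1.82 to 5.66) and 0.264 in subclone 2 (0.0766 to 0.737), and thus high in subclone 1 and low in subclone 2. CD36, a scavenger receptor that binds THBS1, had 3.39, 7.66 and 3.85 RPKM, a fold of 2.26 in subclone 1 over the parent (1.70 to 3.02). LRP1, an endocytic receptor of THBS1, had 16.2, 35.4 and 39.4 RPKM and was 2.18-fold higher in subclone 1 (2.03 to 2.35) and 2.43-fold higher in subclone 2 (2.26 to 2.61). ITGA5, the alpha chain of the fibronectin receptor, was 2.02-fold higher in subclone 1 (1.85 to 2.21) and 1.43-fold higher in subclone 2 (1.31 to 1.57). STAB1, a scavenger receptor that takes up SPARC, was listed in no library, and neither were ITGA4 and ITGA8. ITGB6 and ITGB8, further partners of ITGAV, had at most 10 reads in any library.

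**Figure D4:**
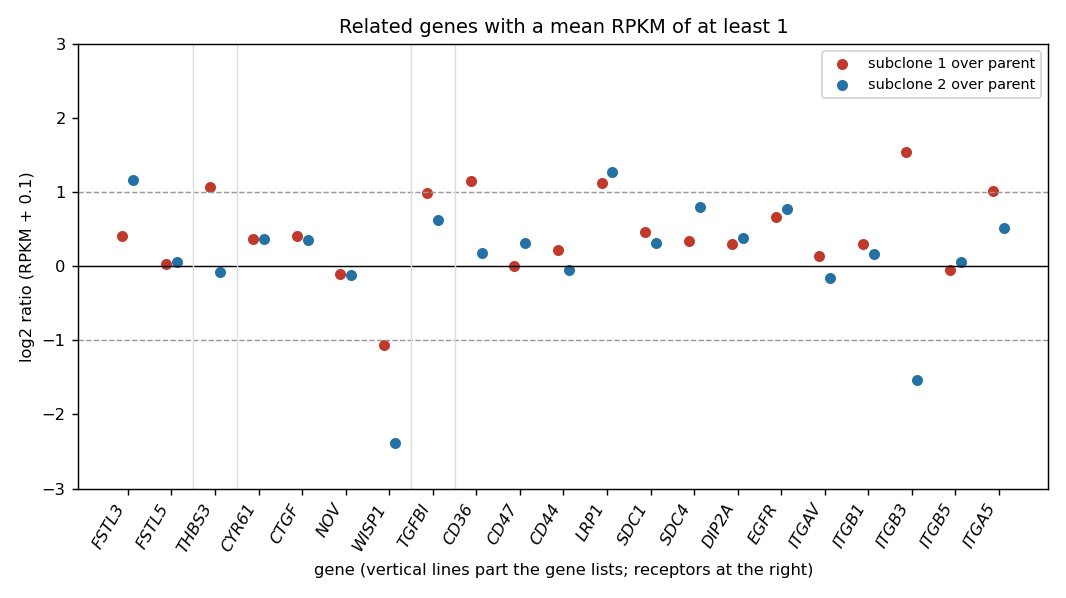
Log2 ratio over the parent (RPKM plus 0.1) of the 21 related genes that passed the filter, for subclone 1 and subclone 2, with 1 library each and dashed lines at 2-fold. THBS3, CD36, LRP1, ITGB3 and ITGA5 are above the upper line in subclone 1, FSTL3 and LRP1 in subclone 2, and WISP1 is below the lower line in each subclone. The points labelled NOV are those of the plexin gene PLXNA1, not of the CCN gene.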

How the data were processed

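Total RNA of 3 HCC cell lines in culture was extracted with Trizol and sequenced after TruSeq library preparation, with 1 library each. The authors deposited RPKM values per gene, by Entrez number and symbol, for genes above 0. Genome build hg19 is named in the processing notes of the submitters, while the aligner, the annotation, the use of strand and the treatment of shared reads are not given in the sources used here. Groups came from sample titles.

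Library totals were found as the whole numbers that make the RPKM of low genes whole reads over whole lengths. For each gene the smallest such length was taken, or a multiple of it where GENCODE (GRCh38) transcript lengths made that more likely. This rule was revised several times after values were seen, since earlier forms gave more reads than the totals; among the members the revisions changed the reads of TNC only. Reads could be assigned for 15608 of the 16149 genes, and came to 99.6% (parent), 99.5% (subclone 1) and 99.6% (subclone 2) of the totals. Since the rule was revised with these totals in view, this is no independent check of the reads. In simulated libraries for subclone 1 over the parent (15137 genes, lengths from the longest transcripts), 3 totals were recovered exactly and 96.4% of genes got the right number of reads. Only genes whose reads could be assigned in the data were simulated, with lengths from the same transcripts that the rule uses. The accuracy on the real lengths is therefore not known. Of 200 genes given a change well beyond 2-fold, with counting noise only, 99.5% passed 2-fold in its direction, on RPKM and not on recovered reads. How often a change near 2-fold would pass was not simulated.

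Ratios were log2 of RPKM plus 0.1, and counts of genes used a mean of at least 1 RPKM and 2-fold. Intervals of RPKM were exact Poisson and those of folds Clopper-Pearson intervals at 95%, for counting error only. No test was made between cell lines. The 10 genes, the lists of related genes and the markers were chosen with earlier results of these data known. All members were named, with related genes at least 2-fold changed and, for each changed member, the 3 genes nearest in pattern. Further related genes below these limits were named after their values were seen. Alternatives were pseudocounts of 0.01 and 1, upper-quartile scaling, median centring, no filter, a mean of at least 5 RPKM, and 1.5-fold. Promoters came from RefSeq (GRCh38.p14) and the primers from the supplement of the study. Python 3.11.15, numpy 2.4.6, pandas 2.3.3, scipy 1.17.1 and matplotlib 3.10.9 were used.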

Additional observations from a re-analysis of the deposited data

Results flagged for a closer look

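SPARC is listed here because its log2 ratio over the parent had opposite signs in the subclones, 3.10 in subclone 1 and -0.30 in subclone 2. This difference rests on 1 library of each line, the ratios share the parent library, and it was not tested between cell lines. The value in subclone 2 is within counting error of no difference.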

How the results depend on the processing

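Of 44 log2 ratios of SPARC, THBS1, TNC and SPP1 under the alternative pseudocounts and scalings, 42 lay inside the 95% interval given for that ratio and 0 changed sign. The other 2 were those of TNC over the parent with a pseudocount of 1, where both were -1.29. SPARC ranged from 2.80 to 3.14 (log2) for subclone 1 over the parent and from -3.45 to -3.03 for subclone 2 over subclone 1. Of 42 counts of members at least 2-fold higher or lower, 36 were the same. Shares over all genes were taken at the main settings only, so the counts under alternatives have no share to be read against. With no filter, TNC entered the counts of lower genes, which over the parent became 1 in place of 0 for subclone 1 and 2 in place of 1 for subclone 2. At 1.5-fold the count of lower genes in subclone 1 over the parent was 2 (THBS1 and SPP1) in place of 0. For subclone 2 over subclone 1, the count of lower genes was 2 in place of 1 with upper-quartile scaling, with median centring and at 1.5-fold, as SPP1 passed the line. Of 42 counts of related genes, recomputed in the same way by a choice made after seeing the data, 13 moved by over 1.5 times. No paired analysis was possible because no cell line was sequenced more than once, which also precludes leaving out a replicate. Precision is poorest at few reads, where the 2 reads of TNC in each subclone leave its fold over the parent between 0.00426 and 0.137 in subclone 1.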

Other observations

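TNXB, another tenascin, was below the filter with 22, 15 and 3 reads (parent, subclone 1, subclone 2), or 0.373, 0.248 and 0.0483 RPKM. Its fold over the parent was 0.664 in subclone 1 (95% counting interval 0.320 to 1.34) and 0.130 in subclone 2 (0.0248 to 0.431). TNXB has a near-identical partial copy, so its reads are uncertain, and it was chosen after its values were seen. TNC differed from it in having 2 reads in each subclone, while TNR was listed in no library and TNN had 1 read in subclone 1.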
